A study of Homo sapiens with 23 samples.

Results

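Parental Kuramochi is the unselected form of 1 of 4 established human ovarian cancer cell lines whose RNA was sequenced. Its members were the table columns that carry the name Kuramochi without the suffix of the resistant cells, which gave 3 of 11 parental libraries and 3 of 23 libraries in all. They were set against the mean of the line means of the other parental lines, OV-90 with 2 libraries, OVSAHO with 3 and EFO-21 with 3, so that each of the 3 lines had equal weight. The other 12 libraries came from prexasertib-resistant derivatives of the same 4 lines, obtained by raising the concentration of the drug, an inhibitor of the checkpoint kinase CHK1, over a long period. Stranded mRNA libraries were made from total RNA, and the deposited value of each of 21658 genes is a quantile-normalized log2 expression value with no read count beside it, so the depth of each library is unknown. Each line is a single culture lineage and the labels call its libraries biological replicates, so the p-values measure spread between libraries of a line and not between tumours. The libraries are bulk RNA, in which fewer cells with a transcript and less transcript per cell cannot be told apart.

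Most high-grade serous ovarian cancers are thought to arise from secretory cells of the fallopian tube, an epithelium of Müllerian origin that is marked by the transcription factors PAX8 and SOX17 and, in part, by WT1. Kuramochi and OVSAHO are widely used as models of that disease.

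The labelled identity was checked first against genes that define it. PAX8 was at log2 values of 9.50, 9.27 and 9.35 in the 3 Kuramochi libraries, at 8.95 to 9.06 in OVSAHO and 8.42 to 8.46 in EFO-21, but at 2.43 and 1.77 in OV-90. SOX17 was at 12.34, 12.32 and 12.41 in Kuramochi, near its levels in OVSAHO and EFO-21, and at 4.17 and 4.58 in OV-90. WT1 was at 8.05, 7.95 and 7.89 in Kuramochi, which only OVSAHO matched, with values from 8.19 to 8.30. Kuramochi thus carried the 3 Müllerian factors at high levels, OVSAHO shared all 3, EFO-21 lacked WT1 and OV-90 had none of them at a high level. EMX2, a homeobox gene of the developing Müllerian duct, was at 9.38, 9.38 and 9.35 in Kuramochi and at 2.06 and -0.01 in OV-90. MECOM, a zinc finger factor, had a mean of 6.74 in Kuramochi, which was -0.68 from the mean of the other lines and not called.

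OV-90 stood apart from the other 3 lines in the same genes and in whole profiles. The differences of PAX8, SOX17 and EMX2 were 2.86, 2.77 and 2.55 with OV-90 in the comparison and 0.65, 0.17 and -0.34 without it, so these 3 calls rested on OV-90. Across genes, which are not independent replicates, Pearson's r between Kuramochi libraries was 0.971 to 0.978. Against parental libraries of other lines it was 0.793 to 0.808 for OVSAHO, 0.757 to 0.765 for EFO-21 and 0.641 to 0.701 for OV-90. Kuramochi was therefore nearest to OVSAHO in this measure and farthest from OV-90.

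Markers of other cell types were read as a check on the libraries. Of 8 epithelial markers, KRT18, KRT8, CLDN4 and CLDN3 were abundant, with mean values in Kuramochi of 12.31, 11.19, 11.60 and 10.30. KRT19 was at 8.58, EPCAM at 6.47, CDH1 at 4.62 and KRT7 at 3.76. The log2 sum of the epithelial markers was 13.44, 13.61 and 13.70 in Kuramochi, below each library of the other lines (at least 13.85). Among immune markers, PTPRC was at 2.98, CD14 at 5.95, and CD3E at 0.01, 0.01 and 3.10 in the 3 libraries. PECAM1, an endothelial marker, lay at the bottom in 3 Kuramochi libraries. The bottom stands for values up to the 10th percentile of the library concerned, itself between 1.70 and 1.87. The other endothelial markers, CDH5 and VWF, had means of 4.75 and 3.89 and were called higher, by 1.65 and 1.34, though EFO-21 had means of 9.11 and 3.65. The log2 sum of the 3 endothelial markers was 5.65, 5.16 and 5.50 in Kuramochi, below both OV-90 (6.46 and 6.41) and EFO-21 (at least 9.80) but above OVSAHO (at most 3.16). Of the hepatocyte markers, ALB and HNF4A lay at the bottom in the same 3 Kuramochi libraries, and APOA1 was at 7.90. Among 6 fibroblast markers, COL3A1 was at 10.58 and COL1A1 at 6.60, but DCN was at 3.53, LUM at 2.24 and PDGFRA at 2.14, and COL1A2 was at 0.46, 0.59 and 5.11. The log2 sum of the fibroblast markers was 10.94, 10.59 and 10.58 in Kuramochi, most of it COL3A1, against 12.45 and 13.26 in OV-90, at most 6.28 in OVSAHO and at most 5.15 in EFO-21. Summed immune markers reached 5.97, 6.27 and 6.66 in Kuramochi, within the range of the other lines.

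A gene was called higher or lower when limma's adjusted p, corrected by the Benjamini-Hochberg method over the 21658 genes, was below 0.05 and the difference was at least 1 on the log2 scale. By this rule 3755 genes (17.3%) were higher and 4034 (18.6%) were lower in parental Kuramochi than in the mean of the other lines, and the median difference of all genes was 0.02. The counts of gene lists given below are to be read against these shares, and no list was tested against them. A narrower call asked in addition for a difference of at least 1 from each of the 3 lines, with the 3 Kuramochi libraries beyond the 8 others. It left 1200 genes (5.54%) higher and 873 genes (4.03%) lower than in each line. Of the 1200, 800 had a Kuramochi mean above the median of all gene means, 5.82, and for 56 the 8 other libraries lay at the bottom. For 241 of the 873 lower genes it was the 3 Kuramochi libraries that lay there, and for such genes a difference is not a measured fold change.

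The genes farthest above their nearest other line were at high levels in Kuramochi and near the bottom elsewhere. ACTG2 (NCBI Gene ID 72), the gamma actin of visceral smooth muscle, was at 11.18, 11.32 and 11.31 in Kuramochi and from 1.31 to 3.29 elsewhere, a difference of 9.03 (SE 0.34, adjusted p = 1.40e-08 in limma). IGFL1, a secreted protein of the insulin growth factor-like family, was at 9.99, 10.18 and 10.31, against other values with a median of 1.01 and a maximum of 2.62 (difference 9.01, SE 0.41, adjusted p = 4.00e-08 in limma). Both were high in each Kuramochi library and low in each of the 8 others, with no overlap.

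NXPH2, SEMA5B and BAALC were also among the 12 that led in this order. They do not form a fixed list, and the neural list given later had 7 called higher and 8 lower of 19. NXPH2, which belongs to the neurexophilin family of neurexin ligands, was at 10.64, 10.28 and 10.16 in Kuramochi and no higher than 3.51 elsewhere, with a difference of 7.90 (SE 0.55). SEMA5B, a semaphorin of axon guidance, was at 9.54, 9.11 and 9.15 against a maximum of 2.43, a difference of 7.89 (SE 0.17). BAALC, named for its expression in brain and acute leukaemia, was at 9.74, 9.87 and 9.94 against a maximum of 3.55, a difference of 7.16 (SE 0.15). For each of these 3 genes the Kuramochi libraries were high and the ranges were separate (largest adjusted p of the 3, 7.98e-07 in limma).

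The remaining leading genes included enzymes and secreted or surface proteins. MGAT4C and B3GALT2 encode glycosyltransferases, and their Kuramochi means were 8.55 and 8.84. MGAT4C was listed at 0 in the 3 EFO-21 libraries and lay at the bottom in the other 5, so no fold is given. WFDC11, of the WAP domain family, was also listed at 0 in EFO-21 and at the bottom in OV-90 and OVSAHO, and it was at 6.47, 7.06 and 7.20 in Kuramochi. NPR3, which clears natriuretic peptides from the cell surface, was at 9.94, 9.32 and 9.26 in Kuramochi and at most 3.17 elsewhere (difference 7.58, SE 0.21). C12orf71BP and MAMDC2-AS1 also belonged to the 12, at 10.35, 10.53 and 10.63 and at 7.98, 7.89 and 8.13 in Kuramochi. MAMDC2-AS1 is an antisense transcript, and since the strand used in counting is not stated, part of its value may belong to the opposite strand.

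**Figure D1:**
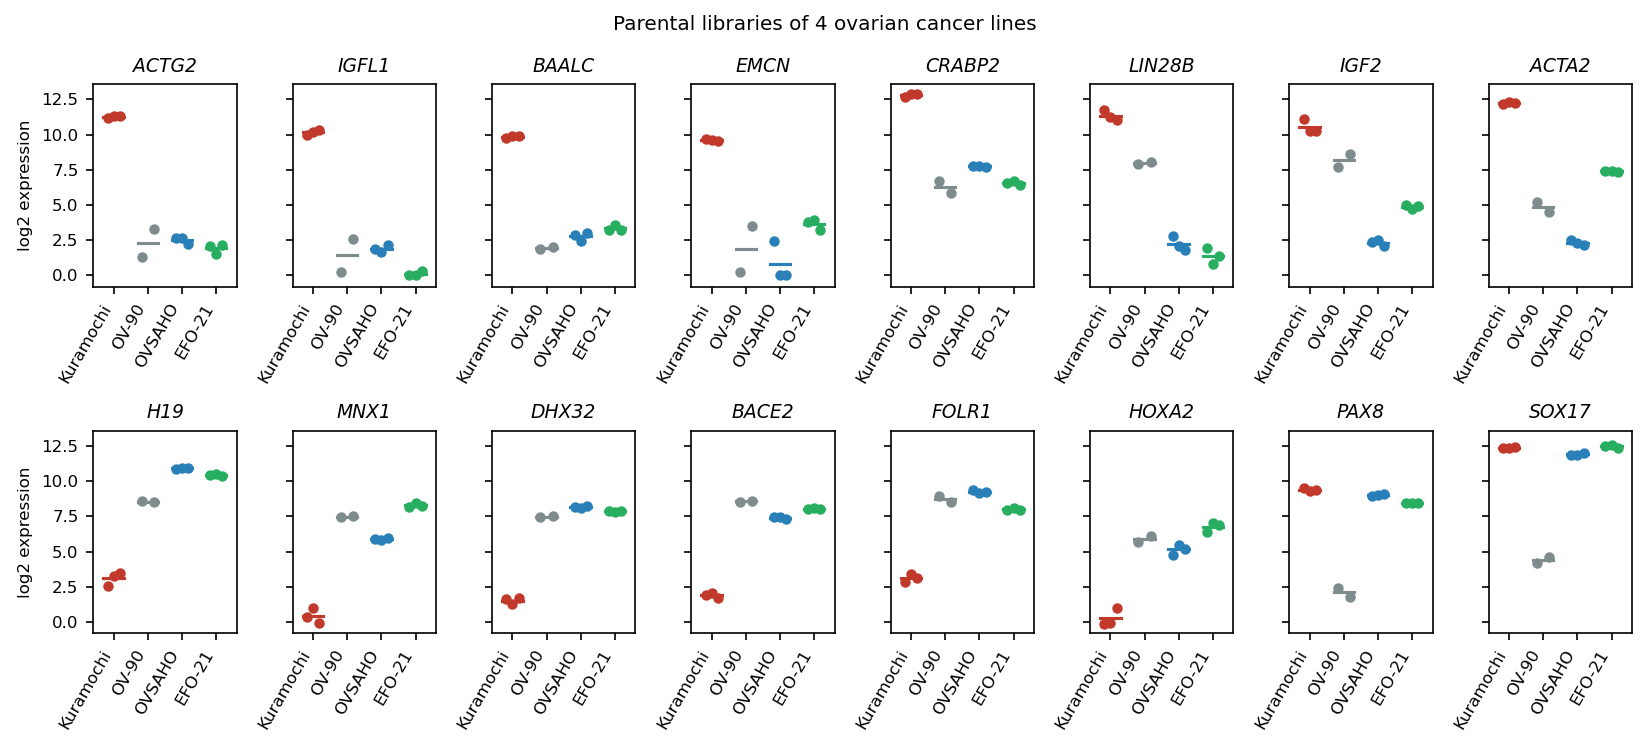
Log2 expression (y axis) of 16 genes in the 11 parental libraries, grouped by line on the x axis, with a point for each library and a bar at each line's mean. Kuramochi stood above the 8 other libraries for ACTG2, IGFL1, BAALC, EMCN, CRABP2, LIN28B, IGF2 and ACTA2 and below them for H19, MNX1, DHX32, BACE2, FOLR1 and HOXA2, while PAX8 and SOX17 were low in OV-90 alone.

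Among 30 measured RAS-MAPK genes, 6 were called higher and 1 lower, with a median difference of 0.36. The higher calls were about as frequent as among all genes (17.3%), and lower calls less frequent (18.6% of all genes). EGR1, an immediate early transcription factor downstream of MAPK signalling, was among the 6, at 10.83, 10.54 and 10.52 in Kuramochi and at most 9.13 elsewhere (difference 3.08, SE 0.15).

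Mesenchymal genes were called higher more often than all genes: of 37 measured, 23 were called higher and 5 lower, 10 were higher than in each line, and the median difference was 1.83. Without OV-90 the counts were 21 and 4, with a median of 1.48. Against single lines the median was 2.20 from OV-90 and 2.07 from OVSAHO but 0.38 from EFO-21, which shared much of this trait. COL3A1, a fibrillar collagen, was at 10.85, 10.48 and 10.41 in Kuramochi, and the lowest, median and highest of the others were 0.03, 3.45 and 5.87 (difference 7.59, SE 0.22, adjusted p = 2.78e-09 in limma). SNAI2, a repressor of epithelial genes, was at 7.65, 7.60 and 7.42 against a maximum of 2.57 (difference 6.46, SE 0.37, adjusted p = 2.01e-07 in limma). ZEB2, another such repressor, was at 6.29, 5.99 and 5.86 against a maximum of 3.01 (difference 4.77, SE 0.25). Both repressors separated Kuramochi from the 8 other libraries, whereas their relative ZEB1, with values of 5.92, 5.08 and 5.15, lay among those of OVSAHO and EFO-21 and was not called. SPARC, a matrix glycoprotein singled out after its values were seen, was at 13.16, 12.88 and 12.83, above the 10.94 of the highest EFO-21 library. VIM, the mesenchymal intermediate filament, was high in Kuramochi at 11.51, 11.67 and 11.68 and also in OVSAHO at 12.08 to 12.27. Its difference of 2.84 rested on OV-90 and was 0.39 without that line. LOX, which crosslinks collagen, went the other way, at 2.20, 2.46 and 1.81 in Kuramochi and at 5.04 to 7.44 in the other lines, a difference of -4.40 (SE 0.15).

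Contractile genes of smooth muscle were put together after their values were seen, and not all of them set Kuramochi apart. ACTA2, the alpha actin of vascular smooth muscle, was at 12.15, 12.30 and 12.23 in Kuramochi, and the lowest, median and highest of the others were 2.14, 4.88 and 7.44 (difference 7.36, SE 0.14, adjusted p = 3.46e-10 in limma). LMOD1, a leiomodin that nucleates actin filaments, was at 10.06, 9.91 and 9.93 against a maximum of 8.10 in OVSAHO. CALD1, the actin-binding protein caldesmon, was at 11.09, 10.53 and 10.36 against a maximum of 7.96, and MYL9, a regulatory myosin light chain, at 13.87, 13.86 and 13.92 against 12.38 in EFO-21. These 4 genes and ACTG2 were higher than in each line. TAGLN, another actin-binding protein, was at 12.46, 12.65 and 12.64 in Kuramochi but equally high in EFO-21, at 12.58 to 12.73. MYLK, the kinase of myosin light chains, was called only through OV-90, with a difference of 2.16 that was 0.19 without that line. ACTA1, the skeletal muscle actin, varied widely between the Kuramochi libraries, at 7.75, 8.64 and 6.14, and overlapped with OV-90.

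The promoter of ACTG2 is shown because it carries the motif that is bound by serum response factor, a regulator of both smooth muscle actins and immediate early genes. The sequence is taken from RefSeq, build GRCh38.p14, plus strand, chr2:73892758-73893057, and runs from 250 bases before the gene's start to 50 bases after it. Capitals mark each CArG box, searched only in its strict form, CC, a run of A or T, then GG, which reads alike on either strand.
ACTG2: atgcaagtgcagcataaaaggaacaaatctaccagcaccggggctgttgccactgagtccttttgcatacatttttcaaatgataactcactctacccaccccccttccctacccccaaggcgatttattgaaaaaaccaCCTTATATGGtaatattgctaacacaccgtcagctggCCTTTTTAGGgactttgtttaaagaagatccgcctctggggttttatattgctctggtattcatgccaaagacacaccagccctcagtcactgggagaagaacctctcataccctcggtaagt
The 2 boxes lie 110 to 101 and 73 to 64 bases before the start. A CArG box was found in 351 of 27305 promoters of this length (1.29%) and 2 or more in 9 (0.033%). Of the other genes named here for contraction or as immediate early genes, the window of EGR1 held 2, those of ACTA1 and MYLK 1 each, and those of ACTA2, CALD1 and LMOD1 none; TAGLN and MYL9 were not searched. Boxes that depart from the strict form and boxes outside the window were not searched for, so a gene without a match may still have one. A match describes the letters of the window, and binding was not measured.

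Single genes of retinoic acid handling differed in either direction. CRABP2, which carries retinoic acid to its nuclear receptors, was at 12.70, 12.86 and 12.91 in Kuramochi, and the lowest, median and highest of the others were 5.88, 6.71 and 7.76 (difference 5.96, SE 0.14, adjusted p = 1.02e-09 in limma). CRABP1, its cytoplasmic relative, was at 10.04, 10.35 and 10.36 against a maximum of 8.62 in OVSAHO, a difference of 4.39 (SE 0.48). Of the enzymes that make retinoic acid, 2 were picked after their values were seen. ALDH1A2 was at 8.58, 8.33 and 8.17 in Kuramochi and at most 4.66 elsewhere, whereas ALDH1A1 was at 3.00, 3.28 and 2.97 in Kuramochi and from 5.23 in OVSAHO to 13.71 in OV-90. Their differences were 5.92 (SE 0.15) and -6.77 (SE 0.14), with Kuramochi beyond the 8 other libraries in both.

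Oncofetal genes, expressed in the embryo and again in some tumours, were listed together with targets of let-7 microRNAs. Of 30 measured, 10 were called higher and 8 lower, with a median difference of 0.59. LIN28B, an RNA-binding protein that blocks the maturation of let-7 microRNAs, was at 11.76, 11.25 and 11.01 in Kuramochi, at 7.89 and 8.08 in OV-90 and at most 2.79 in the other libraries (difference 7.48, SE 0.28, adjusted p = 1.25e-08 in limma). HMGA2, a let-7 target named after its values were seen, had a mean of 7.25 and was not called, and MYC, with a mean of 9.65, was not called either. E2F5, also on this list, was higher than in each line, with a difference of 1.42 (SE 0.08). Whether let-7 targets differed as a group was not tested. IGF2, a fetal growth factor, was at 11.12, 10.29 and 10.25 in Kuramochi, with 7.69 and 8.65 in OV-90, and means of 2.33 in OVSAHO and 4.89 in EFO-21 (difference 5.43, SE 0.23).

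H19, the imprinted noncoding RNA that neighbours IGF2, was low in parental Kuramochi, where IGF2 was high. It was at 2.58, 3.28 and 3.48 in Kuramochi, and the lowest, median and highest of the others were 8.50, 10.45 and 10.95 (difference -6.83, SE 0.16, adjusted p = 7.89e-10 in limma). OV-90 had both at high values, with H19 at 8.56 and 8.50, and OVSAHO and EFO-21 had high H19 with lower IGF2. MIR675, whose hairpin lies within H19, was at 1.91, 1.34 and 1.76 in Kuramochi and at 6.51 to 8.84 elsewhere, a difference of -6.15 (SE 0.15). Its value comes from mRNA libraries and stands for reads of the H19 transcript over the hairpin, not for the mature microRNAs, so it repeats the result of H19. The mature microRNAs of that hairpin are shown because their precursor transcript is the part of the locus that Kuramochi lacks at high level. They are from RefSeq, build GRCh38.p14, minus strand, at chr11:1996800-1996822 and chr11:1996768-1996787, with the seed, bases 2 to 8, in capitals.
hsa-miR-675-5p: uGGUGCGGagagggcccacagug
hsa-miR-675-3p: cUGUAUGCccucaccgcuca
The seeds of the 2 arms differ. All 3 Kuramochi libraries lay below the 8 other libraries for both H19 and MIR675.

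MNX1 and its divergent neighbour were among the 12 leading genes that were lower in Kuramochi than in each line. MNX1-AS1 was at -0.39, -0.29 and -0.51 in Kuramochi, which is the bottom of these libraries, and the lowest, median and highest of the others were 5.66, 6.73 and 8.13 (difference -7.23, SE 0.18, adjusted p = 1.02e-09 in limma). MNX1 (NCBI Gene ID 3110), a homeobox factor of motor neurons and pancreas, was at 0.35, 1.01 and -0.11 in Kuramochi and at 5.81 to 8.45 elsewhere (difference -6.81, SE 0.20). The pair was therefore at the bottom in 3 Kuramochi libraries and above the median of all genes in most others, and the sizes of these differences are not measured fold changes. MNX1-AS1 lies on the opposite strand, and the strand used in counting is not stated.

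The promoter of MNX1 is shown because it serves both transcripts: in RefSeq their starts lie 194 bases apart on opposite strands, and their promoter windows share 293 bases. The window, from RefSeq build GRCh38.p14, minus strand, chr7:157010614-157010913, has each CG dinucleotide in capitals.
MNX1: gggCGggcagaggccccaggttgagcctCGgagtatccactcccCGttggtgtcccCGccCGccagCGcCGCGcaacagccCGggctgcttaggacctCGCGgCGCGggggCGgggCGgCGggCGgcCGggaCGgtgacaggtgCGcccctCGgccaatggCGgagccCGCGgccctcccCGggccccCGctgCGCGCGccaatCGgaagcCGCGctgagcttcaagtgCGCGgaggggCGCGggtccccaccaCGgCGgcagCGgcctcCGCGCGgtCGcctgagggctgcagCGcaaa
It holds 44 CG dinucleotides, against a median of 14 in all promoters of this length, and 4.09% of promoters hold at least as many. Methylation was not measured.

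Enzymes were among the other leading lower genes. CHPT1, which completes phosphatidylcholine synthesis, was at 1.17, 1.19 and 0.75 in Kuramochi and at 6.79 to 9.38 elsewhere (difference -6.94, SE 0.12). OPLAH, an enzyme of the glutathione cycle, was at 0.86, 0.63 and 0.92 against 6.07 to 6.93 (difference -5.75, SE 0.12). ZDHHC2, a palmitoyltransferase, was at 0.76, -0.23 and 0.81 against 6.12 to 7.03 (difference -6.17, SE 0.20). The 3 enzymes were at the bottom in each Kuramochi library and at ordinary levels in the other lines. DHX32, a helicase-like protein, was at 1.61, 1.26 and 1.69 in Kuramochi, again the bottom, and at 7.44 to 8.26 elsewhere (difference -6.32, SE 0.10, adjusted p = 1.98e-10 in limma). BACE2, an aspartyl protease related to beta-secretase, was at 1.89, 2.06 and 1.71 against 7.33 to 8.59 (difference -6.12, SE 0.09). TMSB15A, which binds actin monomers, TP53TG1, a noncoding RNA, and SRGN, a proteoglycan core protein, had Kuramochi means of 0.81, 1.25 and 1.17, and no other library of the 8 was below 6.33 for any of them.

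HOX genes, which encode position along the body axis, were called in both directions, also within the HOXA and HOXC clusters. Of 38 measured, 12 were called higher and 17 lower, 8 of the latter lower than in each line, and the median difference was -0.21. In the HOXA cluster, HOXA2 was at -0.14, -0.11 and 1.01 in Kuramochi and at 4.77 to 7.01 elsewhere (difference -5.69, SE 0.28), and HOXA3 at 0.70, 0.56 and -0.08 against 5.19 to 6.74 (difference -5.40, SE 0.20). Both were thus at the bottom in Kuramochi and expressed in each other line. HOTAIRM1, a noncoding RNA of the same cluster that was added after its values were seen, was also low, at 2.40, 2.67 and 2.45 against 6.48 to 8.66, though its value may include reads of the opposite strand. HOXB13 was at -0.51, -0.39 and 1.74 in Kuramochi and at 4.48 to 7.70 elsewhere (difference -6.18, SE 0.42). HOXD13, the last gene of the HOXD cluster, had the opposite pattern, at 5.76, 5.59 and 6.23 in Kuramochi and at most 2.39 elsewhere (difference 5.05, SE 0.46).

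**Figure D2:**
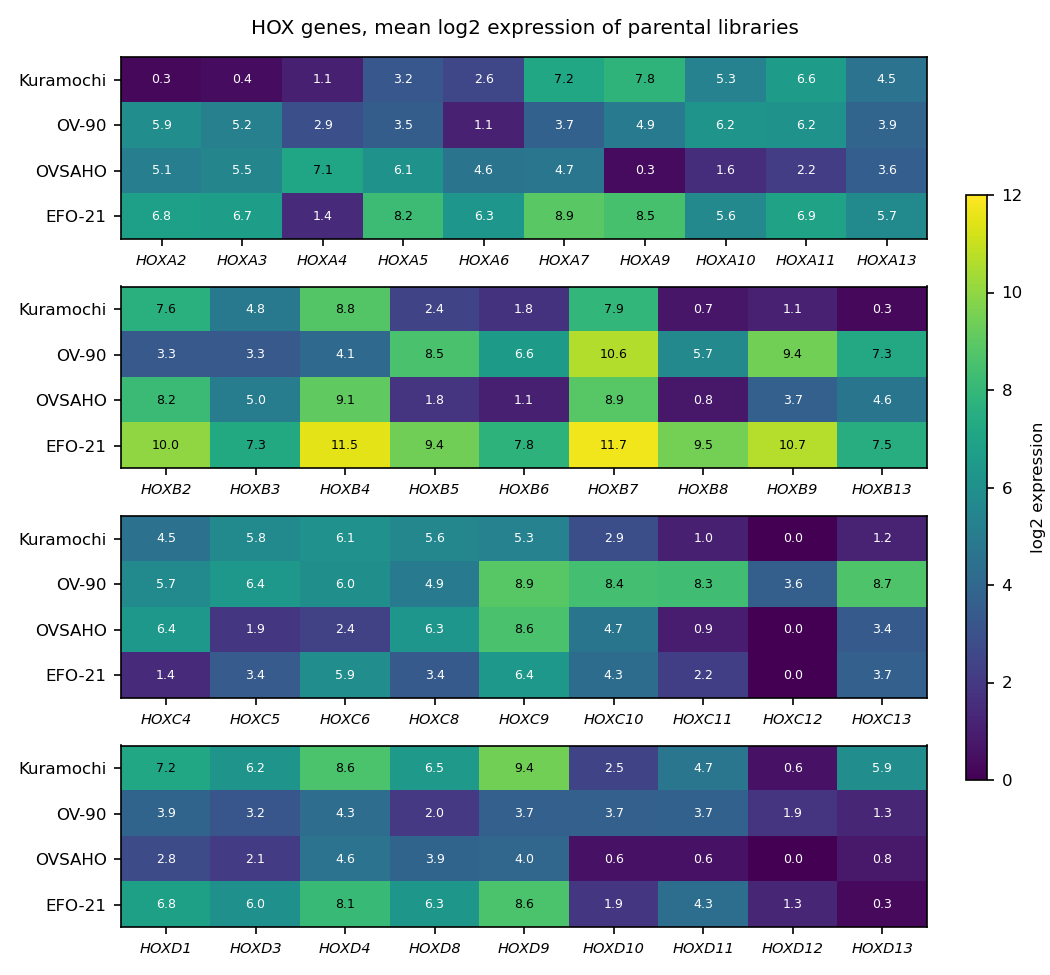
Mean log2 expression, as a colour scale and printed value, of measured genes of the 4 HOX clusters (x axis, in numbered order) in the parental libraries of each line (y axis). HOXA2, HOXA3 and HOXB13 were lower in Kuramochi than in each other line, and HOXD13 was higher.

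Epithelial genes pointed to lower values in Kuramochi, with 4 called higher and 18 lower of 40 measured and a median difference of -0.92. Against single lines the median was -1.86 from OV-90, -0.75 from OVSAHO and -0.20 from EFO-21, and without OV-90 the counts were 10 and 17. EPCAM, an epithelial adhesion molecule, was at 6.27, 6.59 and 6.56 in Kuramochi, and the lowest, median and highest of the others were 8.76, 10.63 and 12.45 (difference -4.12, SE 0.09, adjusted p = 6.39e-10 in limma). PKP3, a desmosomal plakophilin, was at 0.58, 0.76 and 0.66 against 4.15 to 9.82 (difference -6.17, SE 0.12). Both were below each other line. CRB3 and LLGL2, which set apical and basal polarity, were also lower than in each line, with differences of -4.51 and -2.22. CDH1, the epithelial cadherin, was at 4.88, 4.58 and 4.39, as low as in EFO-21 and below the 8.07 to 8.27 of OVSAHO. CDH3, the placental cadherin, and KRT17, a basal keratin, were higher than in each line, with Kuramochi means of 6.48 and 7.41.

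Ovarian cancer antigens, a list of surface, secreted and some intracellular proteins, were mixed, with 10 called higher and 11 lower of 27 measured. The median difference was 0.72 with OV-90 and -0.61 without it, when 4 were higher and 13 lower, so the sign of this median depended on OV-90. FOLR1, the folate receptor targeted in ovarian cancer, was at 2.86, 3.40 and 3.13 in Kuramochi, and the lowest, median and highest of the others were 7.96, 8.70 and 9.37 (difference -5.53, SE 0.12, adjusted p = 7.49e-10 in limma). VTCN1, the checkpoint ligand B7-H4, was at 1.13, 0.79 and 1.03 in Kuramochi, the bottom, and at 3.39 to 6.31 elsewhere (difference -3.70, SE 0.18). KLK5, a secreted kallikrein protease, was at 8.98, 9.22 and 9.29 against a maximum of 5.66 in OVSAHO (difference 6.64, SE 0.14). Kuramochi thus had the lowest FOLR1 and VTCN1 and the highest KLK5 of the 4 parental lines. Among 24 measured Müllerian genes 9 were called higher and 7 lower, 0 of them beyond each line, with a median difference of 0.73; without OV-90 it was 8 and 8, with a median of 0.20.

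**Figure D3:**
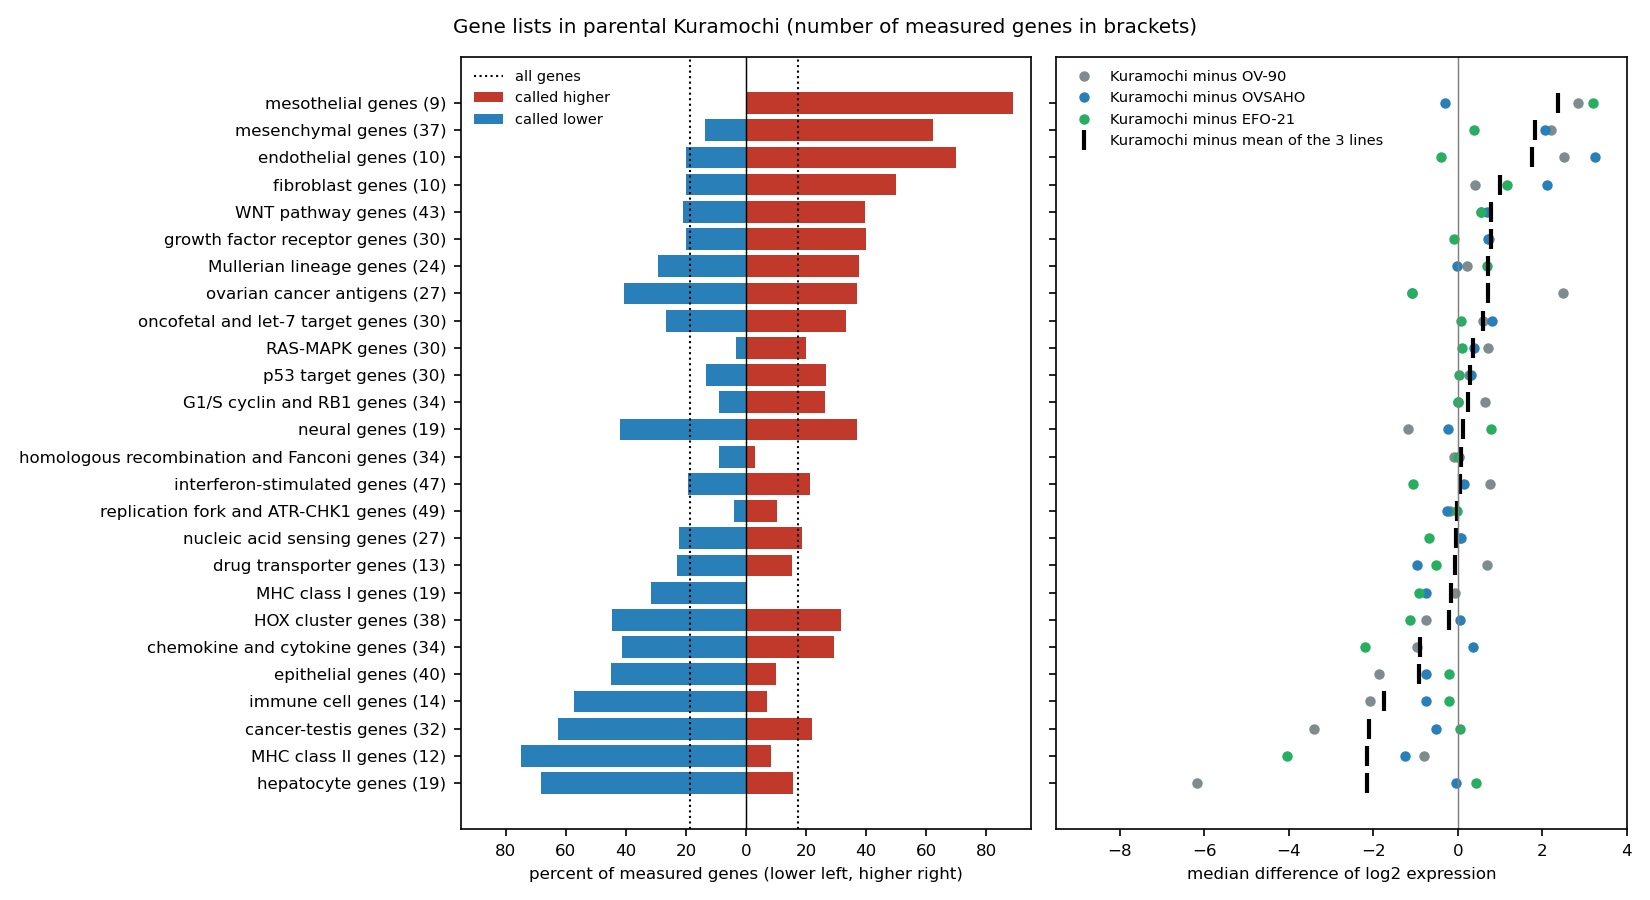
The left panel gives for 26 gene lists the percent of measured genes called higher and lower in parental Kuramochi (x axis), with dotted lines at the shares of all genes, 17.3% and 18.6%. The right panel gives the median log2 difference from each line (points) and from the mean of the 3 lines (ticks); for hepatocyte genes it was -6.17 from OV-90, -0.03 from OVSAHO and 0.42 from EFO-21.

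Interferon-stimulated genes were called about as often as all genes, with 10 higher and 9 lower of 47 and a median difference of 0.05. The direction depended on the lines compared: without OV-90 the counts were 6 and 13, with a median of -0.46, and without EFO-21 they were 20 and 9, with a median of 0.85. OAS3, which makes the second messenger of RNase L, was at 2.25, 1.19 and 1.14 in Kuramochi and at 4.80 to 7.10 elsewhere (difference -4.45, SE 0.27, adjusted p = 2.83e-07 in limma). GBP1, an interferon-induced GTPase, was at 10.26, 10.03 and 9.94 against a maximum of 7.56 (difference 3.68, SE 0.11, adjusted p = 2.77e-09 in limma). The 2 genes thus lay at opposite ends of the same list. Of 27 nucleic acid sensing genes 5 were called higher and 6 lower, with a median of -0.05, which is about as often as all genes (17.3% and 18.6%). DHX58 and IFIH1, which sense RNA, were lower than in each line, with Kuramochi means of 0.86 and 3.09 and differences of -3.62 and -2.30. The RNA sensor TLR3 was higher than in each line, with a difference of 2.07. RIGI, another RNA sensor, was added after its values were seen and was called higher by 1.24. STING1, the adaptor of cytosolic DNA sensing, was at 8.24, 8.32 and 8.44, between EFO-21 and the other lines, and was not called (difference 0.97).

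Antigen presentation genes were called lower more often than higher, while of all genes 17.3% were called higher and 18.6% lower. Of 19 MHC class I genes 0 were called higher, 6 lower and 13 not at all. Their median difference was -0.16, and -0.05 from OV-90 alone. HLA-C was at 4.42, 4.82 and 5.22 in Kuramochi and at 5.97 to 9.02 elsewhere (difference -2.49, SE 0.17), and ERAP1, which trims peptides for loading, was at 5.16, 4.51 and 4.69 against 6.26 to 7.59 (difference -2.06, SE 0.15). Both were lower than in each line, though reads of HLA genes depend on how each line's alleles match the reference. Of 12 MHC class II genes 1 was called higher and 9 lower, with a median of -2.14, and 6 lay at the bottom in Kuramochi. Most of these calls rested on EFO-21, without which 2 were higher and 3 lower, with a median of -1.05. The invariant chain CD74, named after its values were seen, was at 1.99, 1.96 and 2.51, near the bottom. It was at 3.68 and 1.91 in OV-90, 4.41 to 4.81 in OVSAHO and 9.23 to 9.41 in EFO-21. The exception was HLA-DOB, a modulator of peptide loading, at 4.35, 4.65 and 4.85 in Kuramochi and at most 2.38 elsewhere.

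Chemokines and cytokines gave 10 called higher and 14 lower of 34, with a median difference of -0.90, but 10 and 8 without EFO-21, with a median of -0.22. CCL2, which attracts monocytes, was at 10.40, 10.55 and 10.53 in Kuramochi, at most 9.29 in the other lines and as low as 2.00 in OV-90 (difference 3.91, SE 0.11, adjusted p = 2.78e-09 in limma). IL18 was at 3.10, 3.19 and 3.96 against 5.93 to 8.83 (difference -4.12, SE 0.17), and GDF15, a stress-induced cytokine, at 5.88, 5.98 and 6.43 against 7.67 to 12.37 (difference -3.95, SE 0.13). CXCL14 lay at the bottom in Kuramochi, with a mean of 0.57, and reached 7.12 in EFO-21. Kuramochi was the line with the most CCL2 and the least IL18 and GDF15.

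Genes that bear on the response to a CHK1 inhibitor were close to the other lines. Of 49 replication fork and ATR-CHK1 genes 5 were called higher and 2 lower, with a median difference of -0.02, which is fewer than the shares of all genes. CHEK1, the gene of the drug's target, was at 6.65, 6.79 and 6.81 in Kuramochi, inside the range of 5.52 to 7.63 of the other lines, and was not called (difference -0.07, SE 0.07, adjusted p = 0.447 in limma). SLFN11, which blocks stalled replication forks, was at 3.48, 3.36 and 4.19 against 4.80 to 8.36 (difference -2.83, SE 0.26, adjusted p = 6.28e-06 in limma). Kuramochi had less SLFN11 than each other parental line. Of the replicative helicase, MCM3 was lower, at a mean of 8.58 and a difference of -1.38 (SE 0.06), MCM4 was higher, at 9.85 and a difference of 1.20 (SE 0.16), and the other subunits were not called. CLSPN, the adaptor through which ATR activates CHK1, was at 8.17, 7.81 and 7.74 against a maximum of 7.01 (difference 1.30, SE 0.12).

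Homologous recombination and Fanconi genes had 1 called higher and 3 lower of 34, with a median difference of 0.07. That is fewer than the shares of all genes, 17.3% higher and 18.6% lower. BRCA1, at a mean of 5.65, and BRCA2, at 4.66, were not called, and expression values do not show whether a gene carries a mutation. RAD51D, a recombination protein, was between 3.49 and 3.70 in Kuramochi and at 5.41 to 6.09 elsewhere (difference -2.13, SE 0.14). RBBP8, which starts the resection of broken ends, was at 5.87, 6.02 and 5.99 against 7.30 to 8.96 (difference -2.05, SE 0.14). Both were lower than in each other line (adjusted p = 5.14e-07 and 5.27e-07 in limma).

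Of 34 G1/S genes 9 were called higher and 3 lower, with a median of 0.24, against 17.3% higher and 18.6% lower of all genes. The brakes of this transition differed among themselves. CDKN2A was at 10.07, 10.30 and 10.46 against a maximum of 9.42 (difference 1.18, SE 0.10), and RB1 at 7.74, 7.03 and 6.94 against a maximum of 6.05 (difference 1.52, SE 0.24). CDKN2C had a mean of 6.63 in Kuramochi against 8.21 to 11.52 (difference -3.21, SE 0.09). E2F5, a repressive E2F, was at 7.69, 7.78 and 7.90 against a maximum of 6.72 (difference 1.42, SE 0.08), while CCNE1, at a mean of 7.89, was not called. Kuramochi thus had more CDKN2A, RB1 and E2F5 and less CDKN2C than each other line. Of 30 p53 target genes 8 were called higher and 4 lower, with a median of 0.30, and CDKN1A, with a mean of 7.88 and a difference of 1.27, was no longer called without OVSAHO, where the difference was 0.43. Among 13 measured drug transporter genes 2 were called higher and 3 lower, with a median of -0.05. ABCB1 is not in the table.

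Growth factor receptors gave 12 called higher and 6 lower of 30, with a median difference of 0.78, against 17.3% higher and 18.6% lower of all genes. The receptors of vascular endothelial growth factor were among the higher ones. FLT1 had a mean of 6.16 in Kuramochi and at most 3.92 elsewhere, and KDR was at 5.23, 4.65 and 5.01 against a maximum of 3.06, with differences of 4.50 (SE 0.39) and 3.50 (SE 0.21). KIT, the receptor of stem cell factor, was at 4.61, 4.45 and 4.78 against a maximum of 3.15, a difference of 3.39 (SE 0.30). The 3 receptors were higher than in each line at moderate levels. In the whole receptor list 5 genes were higher and 2 lower than in each line, and the median was -0.10 from EFO-21 alone. Of 43 WNT pathway genes 17 were called higher and 9 lower, with a median of 0.79. LEF1, a transcription factor of the pathway, had a mean of 6.97 against a maximum of 4.17 in OVSAHO (difference 5.16, SE 0.16). RNF43, which removes WNT receptors from the surface, was at the bottom, at 1.20, 1.37 and 1.46, against 3.65 to 7.54 elsewhere (difference -4.69, SE 0.20).

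Gene lists of other tissues were also compared. Of 10 endothelial genes 7 were called higher and 2 lower, with a median difference of 1.76 that was -0.41 from EFO-21 alone. EMCN, an endothelial sialomucin, was at 9.71, 9.62 and 9.54 in Kuramochi and at most 3.95 elsewhere (difference 7.50, SE 0.68), although PECAM1 lay at the bottom. Of 9 measured mesothelial genes 8 were called higher and 0 lower, with a median of 2.37, but the median was -0.29 from OVSAHO alone and 1 gene was higher than in each line. This gene, BNC1, an epithelial zinc finger factor, was at 6.53, 6.53 and 6.03 against a maximum of 3.42. WT1 and MSLN stand in both this list and the ovarian ones. Of 10 fibroblast genes 5 were higher and 2 lower (median 1.01), and of 14 immune cell genes 1 was higher and 8 lower (median -1.75). The presence of other cell types was not tested beyond the marker levels given.

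Neural genes were 7 higher and 8 lower of 19 measured, with a median of 0.13 that was -0.26 without OV-90. SOX3, a factor of neural progenitors, was at 7.91, 8.38 and 8.49 in Kuramochi against a maximum of 5.93 (difference 4.58, SE 0.56), whereas PAX6, of the eye and forebrain, was at 0.84, 1.44 and 1.32 against 5.12 to 6.33 (difference -4.51, SE 0.15). The 2 factors thus differed in opposite directions in Kuramochi. Cancer-testis genes were 7 higher and 20 lower of 32, with a median of -2.09, and 8 and 14 without OV-90, with a median of -0.46. SSX1 was at 7.01, 7.46 and 7.27 in Kuramochi and at most 2.56 elsewhere, and SYCP3, of the meiotic chromosome axis, at 0.95, 1.15 and 0.03 against 3.43 to 7.75. Of 19 hepatocyte genes 3 were higher and 13 lower, with a median of -2.15 that was 0.28 without OV-90, the line in which those genes were high.

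Genes in order along the chromosomes showed broad differences as well. Among 14375 ordered genes, 5.24% were higher and 3.76% lower than in each line. On chromosome 13, 13.7% of 277 genes were higher than in each line, with a median difference of 0.41, and on chromosome 8 it was 12.9% of 495, with a median of 0.50. On chromosome 18, 13.5% of 192 genes were lower and 0.521% higher (median -0.62), and on the X chromosome 12.4% of 555 were lower (median -0.58). In windows of 50 consecutive genes, the median difference ran from -1.31 to 1.35 over 13248 windows, which overlap. The highest windows of 50 genes lay on chromosomes 14, 9, 1, 8, 13 and 5, with medians of 1.35, 1.31, 1.23, 1.21, 1.16 and 1.16. The lowest window, chr5:139554741-140598551, spanned clustered protocadherins, some of which share exons and are not independent measurements.

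The same comparison in the 12 resistant libraries, which share none with the parental ones, shows which traits of parental Kuramochi were also present in its resistant derivative. There, 3923 genes (18.1%) were called higher and 4029 (18.6%) lower in Kuramochi than in the mean of the other resistant lines. Genes called higher in both comparisons numbered 2156, which is 57.4% of the parental and 55% of the resistant calls, and 213 parental calls (5.67%) were opposite. For lower genes it was 2342, 58.1% of either list, with 208 opposite (5.16%). Of the 1200 genes higher than in each parental line, 850 (70.8%) were also called higher in the resistant comparison and 48 were called lower. Of the 873 lower ones 557 (63.8%) were called again and 22 opposite. Pearson's r of the 2 sets of differences across genes was 0.64.

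Traits seen in both states included ACTA2, at 11.88, 11.85 and 11.96 in resistant Kuramochi, and NPR3, at 9.79, 9.85 and 9.44. MNX1-AS1 and OPLAH stayed at the bottom, and H19 was at 2.05, 1.84 and 1.77. The 12 leading higher genes were all called again, and 11 of the 12 leading lower genes, DHX32 being the exception.

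Other parental traits were absent from the resistant libraries. LIN28B was at 3.18, 2.40 and 2.83 in resistant Kuramochi, and the difference from the other lines changed by -8.03 (SE 0.77, adjusted p = 6.76e-08 in limma). IGF2 was at 3.47, 3.59 and 3.21 and EMX2 at 1.02, 1.02 and 1.76, both then lower than the mean of the other lines. Their differences from the other lines changed by -8.65 and -8.25. Part of the IGF2 value came from OV-90, whose mean was 8.17 in parental and 11.34 in resistant libraries. High EMX2 was not particular to parental Kuramochi, since its call rested on OV-90 and the parental means were 10.83 in OVSAHO and 8.59 in EFO-21. DHX32, at 7.59, 7.69 and 7.71, and HOTAIRM1, at 8.10, 7.75 and 8.17, went from low to ordinary levels. Their differences from the other lines changed by 6.64 and 5.93. CHEK1 rose from the middle of the parental range to 9.37, 9.42 and 9.34, and its difference changed by 2.63. These comparisons between states are of libraries from 1 parental and 1 resistant culture of the line, and the lowest values were not listed alike in them: the resistant Kuramochi libraries hold 513, 560 and 555 genes at exactly 0 and the parental ones 0.

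**Figure D4:**
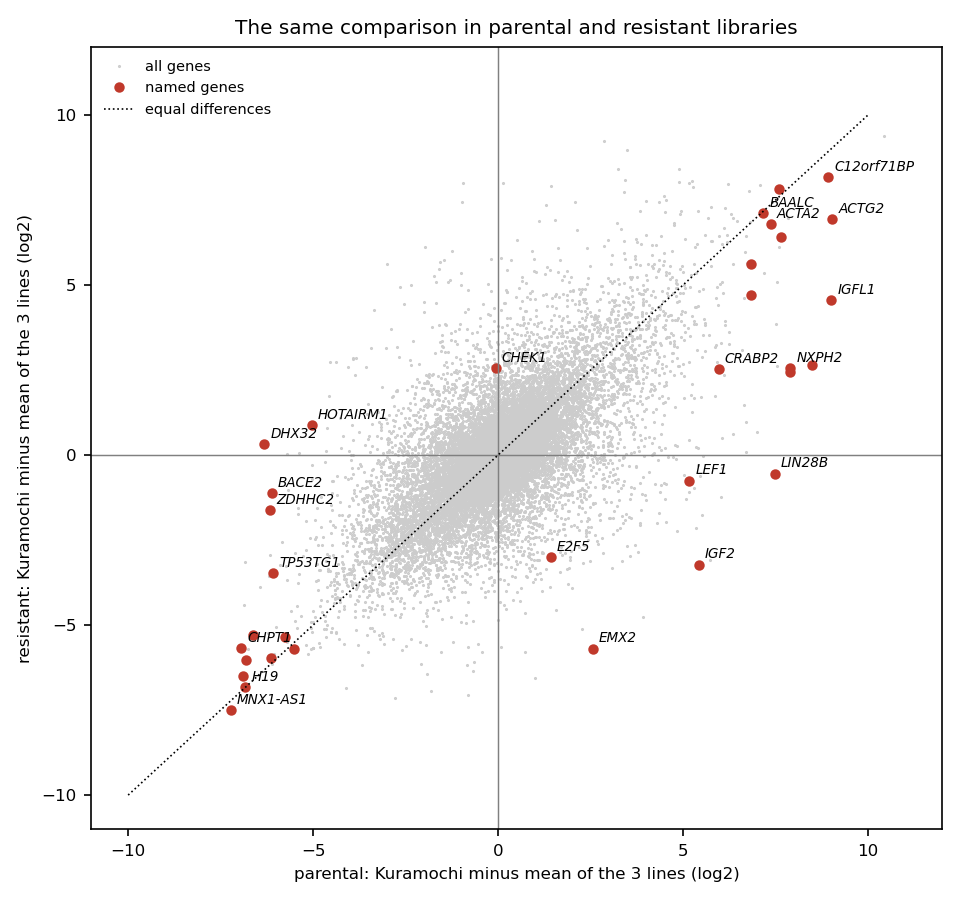
Difference of log2 expression between Kuramochi and the mean of the other 3 lines in parental libraries (x axis) and in resistant libraries (y axis), with each gene as a grey point and named genes in red. Named genes such as BAALC and MNX1-AS1 lie near the line of equal differences, while LIN28B, IGF2, EMX2 and DHX32 lie far from it.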

How the data were processed

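The authors deposited a table of quantile-normalized log2 gene expression values for 23 RNA-seq libraries, summarized from exon values aligned to GRCh37 (hg19) by their notes; 16448 genes came from a robust linear model and 5210 from the mean of log2 exon values. Read counts were not given, so depth and its precision are unknown, and quantile normalization hides shifts common to all genes. Of 21658 genes, 20745 (95.8%) were given a symbol and 19352 a GRCh37 position; the authors' annotation release is not stated. Order along chromosomes used GENCODE lifted to GRCh37, and names, promoters and microRNAs used RefSeq on GRCh38.p14. The log2 values were fitted as line means with limma 3.58.1 in R 4.3.3 (empirical Bayes with trend, Benjamini-Hochberg over all genes, adjusted p under 0.05 and at least 2-fold), separately for parental and resistant libraries, and in 1 fit of 23 libraries for the change between them. The procedure was tested on simulated data.

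The members and the 26 gene lists were chosen with earlier results of these data known. Genes are named when they are among the 12 farthest above or below the nearest other line, with a level requirement, or lead a list, or mark a lineage. Of 105 named genes, 12 stand outside this rule and were chosen after their values were seen, including the smooth muscle and retinoid groups in part. RIGI, which is not among the 105, was also added after its values were seen. Some genes that the rule selects are not reported here. Alternatives changed the libraries in the fit, the trend, a filter at the 25th percentile, recentring, weights, the fold threshold, the lines in the reference, each library in turn, and the window size. No random set test was made, and ABCB1 is not in the table.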

Additional observations from a re-analysis of the deposited data

Results flagged for a closer look

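The difference between Kuramochi and the mean of the other lines was not the same in resistant as in parental libraries for 56 of 105 named genes, by limma's test of the change over all 23 libraries (changes of 1 or more on the log2 scale with an adjusted p below 0.05). Of these changes, 47 were toward 0, and the genes were mostly named for large parental differences. The share of all genes with such a change is not given here, so the count is no result about the named genes as a set. The values that follow are the resistant difference minus the parental difference on the log2 scale. Among these 56 genes, 12 that were called in parental libraries were not called or were called in the opposite direction in resistant libraries: EMX2 -8.25, DHX32 6.64, LIN28B -8.03, IGF2 -8.65, HOTAIRM1 5.93, KRT17 -2.41, EGR1 -2.80, HLA-C 1.65, CXCL14 4.50, CDKN2C 3.02, E2F5 -4.41 and LEF1 -5.92. The 4 called in the opposite direction were EMX2, IGF2, CXCL14 and E2F5.

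Among genes called higher in both states the changes were SOX17 -1.35, WT1 -1.71, ACTG2 -2.09, MGAT4C -5.85, IGFL1 -4.45, NXPH2 -5.34, SEMA5B -5.43, B3GALT2 -1.25, WFDC11 -2.14, COL3A1 -1.46, ZEB2 1.99, VIM 1.96, CALD1 -1.36, ACTA1 -2.70, CRABP2 -3.43, CDH3 1.76, KLK5 -2.02, FLT1 -2.08, KIT 4.34, SSX1 1.54, BNC1 2.62 and EMCN -3.65.

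Among genes called lower in both states the changes were CHPT1 1.27, TMSB15A 1.33, TP53TG1 2.61, ZDHHC2 4.56, BACE2 5.01, LOX 2.29, ALDH1A1 1.07, HOXA2 4.67, HOXA3 3.67, HOXB13 2.63, CDH1 -3.13, EPCAM -2.72, PKP3 3.23, VTCN1 1.13, OAS3 1.52, IFIH1 1.02, GDF15 1.61, SLFN11 1.13 and PAX6 3.03.

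Genes not called in parental libraries changed as follows: MECOM -5.68, HMGA2 -2.18 and CHEK1 2.63. Changes for genes at the bottom in either state are not measured fold changes.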

How the results depend on the processing

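No paired analysis was possible because the table columns carry library numbers but no replicate numbers, so the planned replicate block was not run. The 3755 higher genes became 5714 at 1.5-fold and 7447 with no fold threshold, and the 4034 lower genes became 7200 with no fold threshold. Above the 25th percentile 2541 were higher and 2000 lower, so the larger count changed from lower to higher genes. It also did so at 1.5-fold (5714 higher, 5656 lower), with no fold threshold (7447 and 7200) and without OVSAHO (4228 and 4158). Lower genes remained more numerous without OV-90, without EFO-21 and in the other fits of all libraries. Genes higher than in each line (1200) numbered 702 above the 25th percentile, 1855 at 1.5-fold, 2933 with no fold threshold, and 1882, 2241 and 2086 without OV-90, OVSAHO and EFO-21. Genes lower than in each line (873) numbered 1506 at 1.5-fold, 2323 with no fold threshold, and 1758, 1945 and 1638 without the same lines. With no fold threshold the resistant comparison gave 8118 higher and 8324 lower. Leaving out each of 11 parental libraries gave 3565 to 3949 higher, 3772 to 4139 lower, 1143 to 1263 higher than in each line and 868 to 1004 lower. Leaving out each of 12 resistant libraries gave 3865 to 3924 higher and 3996 to 4036 lower.

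Of 105 named genes 96 were called, and 90 of these kept the call in every alternative that tested them; the filter at the 25th percentile tested 85 of the 105. The other 6 lost the call without 1 line, and EMX2 turned to -0.34 without OV-90; leaving out 1 library ended no call. With windows of 25 and 100 genes the highest median was 3.49 and 1.12 and the lowest -3.24 and -1.10. Each line is 1 culture, depth is unknown, and values at the bottom give no measured fold change.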

Other observations

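Single named genes differed between parental and resistant Kuramochi libraries. KIT, the receptor of stem cell factor, was at 4.61, 4.45 and 4.78 in parental and 8.63, 8.81 and 8.40 in resistant Kuramochi. MECOM had a parental mean of 6.74 and was at 1.49, 1.47 and 1.60 in resistant libraries, and LEF1 had a parental mean of 6.97 and was at 1.70, 1.76 and 1.72 in resistant ones. CDH1 was at 1.72, 1.64 and 1.47 in resistant Kuramochi against 4.88, 4.58 and 4.39 in parental libraries.

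Among endothelial markers, PECAM1 had a mean of 8.48 in EFO-21 and 6.35 in OV-90 and lay at the bottom in parental Kuramochi. LUM, a fibroblast proteoglycan, had a mean of 12.76 in OV-90 and 2.24 in parental Kuramochi. The 3 parental EFO-21 libraries listed 431, 449 and 444 genes at exactly 0, while the parental Kuramochi libraries listed 0 and the resistant ones 513, 560 and 555.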
